A study of Homo sapiens with 8 samples.

Results

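Stretches of the genome in which many open chromatin sites lie close together were described in 697, a B cell precursor acute lymphoblastic leukaemia line, from ATAC-seq peak lists. The 2 lists of 697 cells with an empty guide vector were merged wherever peaks shared at least 1 bp, and 46979 autosomal regions called in both lists were kept. Neighbouring regions with a gap of 12500 bp or less were joined, which gave 31510 groups of any size. A group with 5 or more regions was called a stretch, and 659 stretches met this rule. They hold 3956 of the 46979 regions (8.42%) and span 18.8 Mb in all. The stretches were thus chosen by the peak positions of the 697 control lists, so all values of these lists, and of the 697 clone against them, are a description. Coordinates are those of the hg19 build and start at 1.

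The study compared 697 and KOPN-8 cells that received a guide against SETD2 with cells of the same line that received an empty guide vector. The 4 groups, each with 2 libraries labelled as biological replicates, were the 697 clone BM_B (SETD2 heterozygous knockout), the 697 empty vector control (SETD2 wild type), the KOPN-8 clone BA (SETD2 heterozygous knockout) and the KOPN-8 empty vector control (SETD2 wild type). The labels give this SETD2 status under a tag named for a ChIP antibody, and it was read as the genotype. The titles of the labels write KOPN for KOPN-8, and this short name is used here. Both libraries of a knockout group came from 1 clone, so the edit and the choice of a clone cannot be told apart, and nothing in the labels says that replicates came from separate cultures. Peaks at SETD2 itself were not analysed here, because no annotation in hg19 was used. Autosomal peaks per list ranged from 61010 to 74252 in the 697 clone, 55277 to 67829 in the 697 controls, 62580 to 65163 in the KOPN clone and 61490 to 68122 in the KOPN controls. Read depth is unknown, and list length can set how many regions are called.

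As background, ATAC-seq marks DNA that the Tn5 transposase can reach, mostly promoters and enhancers that are bound by proteins and free of nucleosomes. Enhancers that lie in dense groups are often joined within a fixed distance and called super-enhancers when the group also carries a high load of an activating mark or coactivator. In blood cells such groups are known to lie near genes of lineage identity and, in leukaemia, near oncogenes. No such mark was measured here, so the stretches are dense in open sites and were not tested for enhancer activity. SETD2 trimethylates lysine 36 of histone H3 along transcribed genes.

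Stretches were compact and mostly small. The median span was 27404 bp, with a range of 5514 to 97834 bp. The median gap between neighbouring regions in a stretch was 5018 bp, against 25264 bp between neighbouring regions over all chromosomes, a difference that the rule produces. Regions covered a median of 10.8% of a stretch's span. Of the 659 stretches 345 held 5 regions, 150 held 6, 70 held 7, 49 held 8, and 22 held 10 or more, up to 13. Just outside the rule lay 757 groups of 4 regions, with a median span of 17002 bp against 21553 bp for those of 5. The regions of these groups were also called in both 697 clone libraries at similar shares, 91.4% in groups of 5 and 91.1% in groups of 4. No step was seen at the threshold in KOPN either, where the shares in both clone libraries were 64.6% for groups of 5 and 65.4% for groups of 4, and in both control libraries 64.6% and 64.5%.

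Regions inside the stretches had the same median width as others. The median region was 434 bp wide inside the stretches and 434 bp among the 43023 other regions. The median peak of a list was 378 and 408 bp wide inside and 319 and 322 bp outside in the 697 clone, and 344 and 372 bp inside and 312 and 314 bp outside in the 697 controls. In KOPN the medians inside were 377.5 and 378 bp in the clone and 372 and 364 bp in the controls, and those outside lay between 324 and 329 bp. Peaks inside had the larger median in all 8 lists. The stretches were placed by regions called in both 697 controls, but a peak anywhere in their span was counted as inside. Peaks called in 1 of the 697 control lists only thus occur inside as well as outside, and their shares were not compared. The medians are a description of the choice as well, and its part in the difference was not tested.

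The deposited fold of a peak over background was ranked within each list, and the median percentile of peaks inside the stretches was 51.3 and 57.3 in the 697 clone and 48.1 and 55.2 in the 697 controls. In KOPN it was 51.7 and 50.6 in the clone and 52.2 and 48.7 in the controls. Peaks outside the stretches had median percentiles between 49.5 and 50.2 in the 8 lists. In 6 of the 8 lists the peaks inside ranked above those outside, and in 1 control list of each line they ranked below.

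The stretches were unevenly spread over the chromosomes. Chromosome 2 had 80, chromosome 11 had 70, chromosome 1 had 66 and chromosome 8 had 55. Relative to the regions a chromosome holds, 14.5% of those on chromosome 11 lay in stretches and 12.9% of those on chromosome 14, followed by 10.7% on chromosome 10, 10.5% on chromosome 8 and 10.4% on chromosome 1. The lowest shares were 3.09% on chromosome 19, 3.53% on chromosome 22, 3.98% on chromosome 20, 4.44% on chromosome 17 and 4.48% on chromosome 4. High and low shares both occurred on chromosomes with many protein-coding genes, counted in the RefSeq table for GRCh38. Chromosomes 11 and 1, with high shares, have 1301 and 2062 genes, while among those with low shares chromosomes 19 and 17 have 1451 and 1169, and chromosomes 4, 20 and 22 have 770, 537 and 451.

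The same rule run on the 2 KOPN control lists gave a different order. Chromosome 19 had 4 stretches in the 697 controls and 49 in the KOPN controls, with 744 and 1599 regions called in both lists of the line. The share of its regions inside stretches was 3.09% in the 697 controls and 19.1% in the KOPN controls. Chromosome 17 had 7 stretches in the 697 controls and 36 in the KOPN controls, and chromosome 20 had 4 and 19. On chromosome 11 the lines were closer, with 70 stretches in the 697 controls and 67 in the KOPN controls. The 697 clone formed 13 stretches on chromosome 19, with 1123 regions called in both of its lists. The reason for the low count of the 697 controls on chromosome 19 was not tested.

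**Figure D1:**
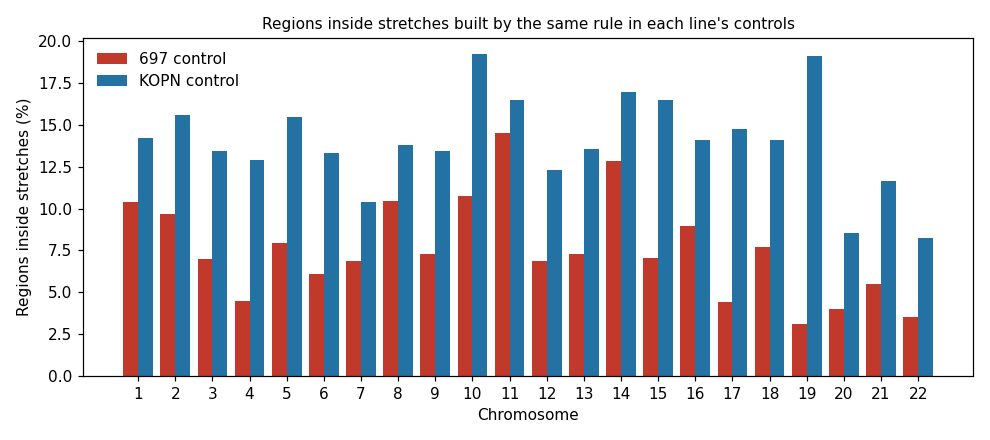
Percentage of the regions called in both control lists of a line (vertical axis) that lie inside stretches, by autosome (horizontal axis), for 697 controls (left bar, stretches of this report) and KOPN controls (right bar, same rule). Chromosome 19 stands at 3.09% in 697 controls and 19.1% in KOPN controls, while chromosome 11 stands at 14.5% and 16.5%.

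Some loci held several stretches in a row. In all, 140 of the 659 stretches lay within 100 kb of another one, in 65 chains. The longest chains had 4 stretches and both were on chromosome 11. The first, chr11:36490746-36772251, held 28 regions, and its span contained 37 and 40 peaks in the 697 clone, 36 and 36 in the 697 controls, 33 and 31 in the KOPN clone and 37 and 33 in the KOPN controls. It was as densely open in KOPN controls as in 697, although 22 of its 28 regions were called in both KOPN control libraries. The second, chr11:128414578-128564877, held 25 regions, with 30 and 29 peaks in the 697 clone, 26 and 30 in the 697 controls, 17 and 22 in the KOPN clone and 21 and 20 in the KOPN controls. There all 25 regions were called in both 697 clone libraries and 15 in both KOPN control libraries. Genes at these loci are not named, since no gene annotation in the build of the files was used.

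The largest stretches differed in how densely KOPN was open there. The stretch with the most regions and most covered bases, chr2:220360146-220436725, held 13 regions. It contained 14 and 14 peaks in the 697 clone, 14 and 15 in the 697 controls, 10 and 10 in the KOPN clone and 10 and 10 in the KOPN controls. Its regions were called in both libraries 12 times in the 697 clone, 10 times in the KOPN clone and 9 times in the KOPN controls. The longest stretch, chr1:226814176-226912009, spans 97.8 kb and also held 13 regions. Here the counts were 16 and 19 peaks in the 697 clone, 16 and 17 in the 697 controls, 17 and 19 in the KOPN clone and 16 and 14 in the KOPN controls. KOPN cells thus had about as many peaks there as 697 cells, and the 2 KOPN clone libraries lay above both KOPN controls.

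A stretch on chromosome 8, chr8:130547906-130605966, held far fewer peaks in KOPN. Its 12 regions were all called in both 697 clone libraries. It contained 14 and 17 peaks in the 697 clone, 12 and 12 in the 697 controls, 2 and 2 in the KOPN clone and 7 and 4 in the KOPN controls. The 2 peaks left in the KOPN clone lay near the 2 ends of the stretch. Both KOPN clone libraries lay below both KOPN controls, while both 697 clone libraries lay above both 697 controls. Over the whole of chromosome 8 the KOPN clone also had fewer regions called in both libraries, 2657 against 3249 in the KOPN controls, and the part of this in the values of the stretch was not tested.

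Other large stretches also differed in count between the lines. The stretch chr9:38641988-38709238, with 12 regions, contained 12 and 14 peaks in the 697 clone, 12 and 14 in the 697 controls, 4 and 4 in the KOPN clone and 4 and 2 in the KOPN controls. In chr10:112580053-112632740, with 10 regions, all 4 libraries of 697 had 10 peaks, against 5 and 4 in the KOPN clone and 6 and 6 in the KOPN controls. The long stretch chr5:152859907-152935798, with 9 regions over 75.9 kb, contained 8 and 10 peaks in the 697 clone, 9 and 10 in the 697 controls, 0 and 2 in the KOPN clone and 4 and 5 in the KOPN controls. None of its regions was called in both KOPN clone libraries and 3 were called in both KOPN controls.

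Several of the 15 largest stretches were equally dense in both lines. The stretch chr11:796124-845068 had 11 regions, all of which were called in both 697 clone libraries and in both KOPN control libraries, and 10 in both KOPN clone libraries. It contained 11 and 12 peaks in the 697 clone, 12 and 12 in the 697 controls, and 11 in each of the 4 KOPN libraries. The stretch chr5:131693569-131773731, with 12 regions, contained 12 and 13 peaks in the 697 clone, 13 and 12 in the 697 controls, 14 and 13 in the KOPN clone and 14 and 13 in the KOPN controls. In chr10:22604941-22641208, with 10 regions, KOPN had slightly more peaks, namely 10 and 9 in the 697 clone, 10 and 10 in the 697 controls, 12 and 12 in the KOPN clone and 13 and 12 in the KOPN controls. The remaining large stretches, on chromosomes 1, 2, 7, 8, 11 and 14, had between 8 and 16 peaks in each KOPN library.

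**Figure D2:**
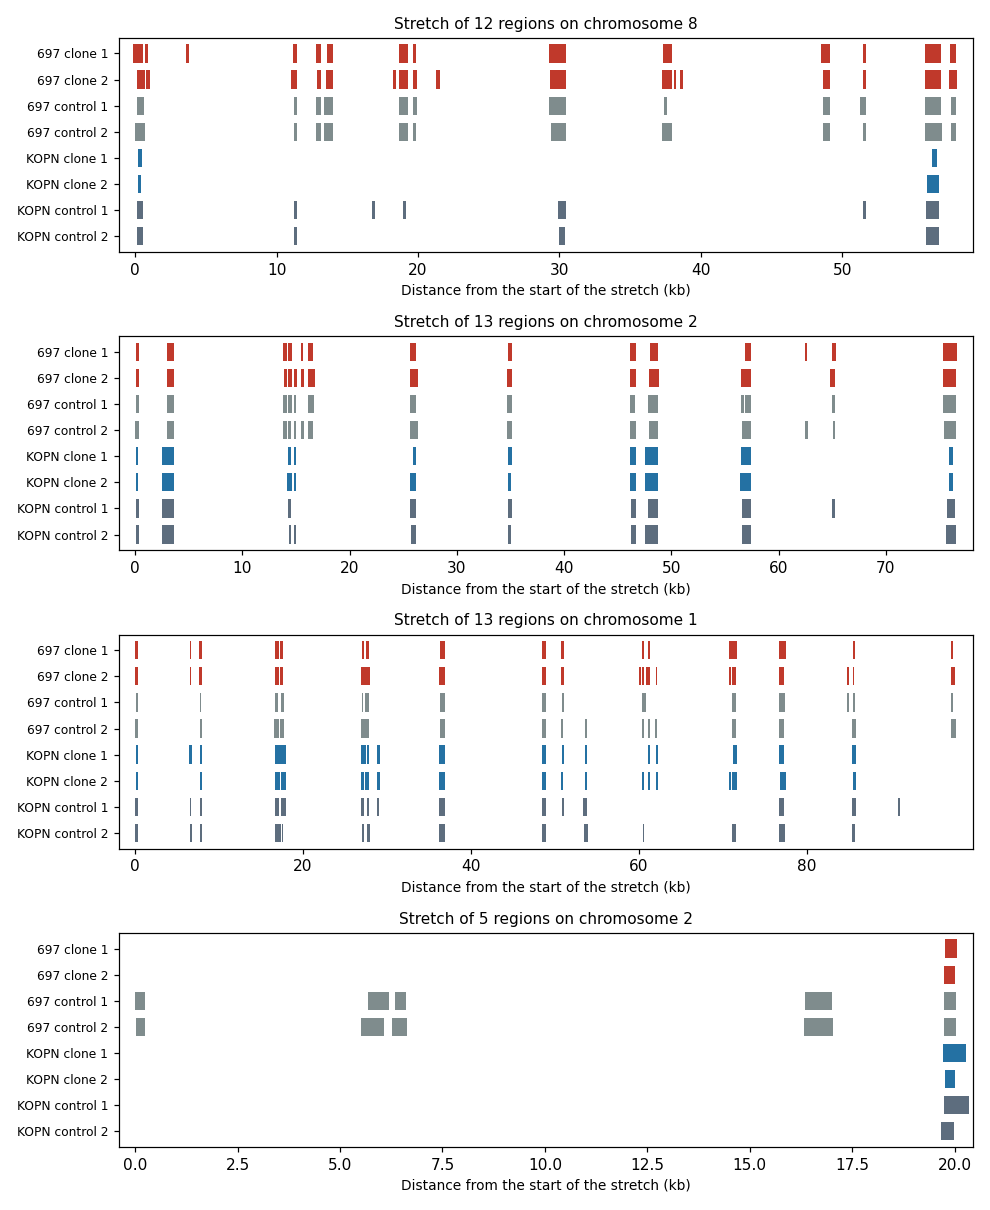
Peaks of the 8 libraries (rows, clone above control in each line) along 4 stretches, drawn by distance from the start of the stretch in kb (horizontal axis), with each block 1 deposited peak. From the top, the stretch on chromosome 8 has 14 and 17 peaks in the 697 clone and 2 and 2 in the KOPN clone, the largest stretches on chromosomes 2 and 1 are filled in both lines, and in the 5-region stretch on chromosome 2 the 697 clone has 1 peak a library.

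The first comparison asked whether the 697 clone kept the stretches of its controls. Of the 3956 member regions, 3663 (92.6%, exact binomial interval 91.7% to 93.4%, which covers counting error only) were called in both clone libraries, against 89.2% of all 46979 regions of the controls. Another 78 member regions (1.97%) were called in neither clone library, against 3.41% of all regions. Per library, 93.3% and 97.2% of the member regions were called in the clone, beside 90.6% and 95.1% of all regions. No test was made, because the control lists chose the members and regions are not replicates. The direction of loss is built in, since a region had to be called in both controls to be counted.

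By stretch, 437 of 659 (66.3%) kept every region in both clone libraries and 171 missed 1. None lost all of its regions, and 8 kept under 50% of them. Counting regions called in both clone libraries anywhere in the span, 122 stretches had more regions in the clone than in the controls, 304 had the same number and 233 had fewer. Choosing stretches by the control calls favours fewer regions in the clone, and no matching counts over all joined groups were made. Nothing is therefore read from these counts of stretches. In the 4 merged lists of 697, 73 of 4485 regions inside the stretches (1.63%) were gained, meaning that both clone libraries and neither control called them, and 78 (1.74%) were lost. Over all autosomal regions 4.31% were gained and 1.71% lost, and nothing is read from this difference because regions called in the controls define the stretches. These counts rest on both libraries of each arm, since a single control library made 790 regions lost without the first control and 251 gained without the second.

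In 3 stretches of 5 regions only 1 region was called in both libraries of the 697 clone. In chr2:118459753-118479793 the clone had 1 and 1 peaks, against 5 and 5 in its controls, and the KOPN clone and KOPN controls had 1 peak in each library. The single peak that remained was at the far end of the stretch in all of these libraries. In chr8:111132729-111151444 the clone had 1 and 2 peaks, against 5 and 5 in its controls, and KOPN had 1 and 0 in its clone and 3 and 1 in its controls. The stretch chr8:39797248-39827778 differed from these, since the 697 clone had 2 and 3 peaks and its controls 5 and 5, while all 5 regions were called in both KOPN clone libraries and in both KOPN controls. Its peak counts in KOPN were 6 and 5 in the clone and 5 and 6 in the controls.

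The next lowest share was 40%, in 5 stretches. In chr9:9897087-9930215 both clone libraries were lower, with 4 and 5 peaks in the 697 clone and 6 and 6 in its controls, beside 3 and 4 in the KOPN clone and 3 and 4 in the KOPN controls. In the others the counts of the groups overlapped. In chr14:22446463-22471307 the 697 clone had 2 and 5 peaks and its controls 5 and 5, and KOPN had 0 and 0 in the clone and 1 and 1 in the controls. In chr15:87454385-87468984 the 697 clone again had 2 and 5 peaks, against 5 and 5 in its controls. Over all stretches both clone counts lay above both control counts in 54 (8.19%) and below in 65 (9.86%). Among the 3348 groups of 3 or more regions, the stretches included, these shares were 4.6% and 8.57%, and small groups can differ in count less often.

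Peaks inside the stretches were nearly equal in number in both arms of 697. The clone lists had 4090 and 4315 of them and the control lists 4180 and 4318. As a share of the autosomal peaks of a list, this was 6.70% and 5.81% in the clone and 7.56% and 6.37% in the controls, or 6.26 ± 0.631% in the clone and 6.96 ± 0.846% in the controls (SD, n = 2 each). The groups overlap, and the difference of -0.706 percentage points was smaller in size than the SD of the controls and larger than that of the clone. The longer list of each arm had the lower share.

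The second comparison asked how far the stretches are also open in KOPN. Of the 3956 member regions, 2656 (67.1%) were called in both KOPN clone libraries and 2654 (67.1%) in both KOPN control libraries, against 63.6% and 64% of all regions of the 697 controls. A region called in neither library was counted 980 times (24.8%) in the KOPN clone and 988 times (24.97%) in the KOPN controls, against 27.7% and 26.7% of all regions. The members together were thus found in KOPN at a share slightly above that of all 697 regions. In the 345 stretches of 5 regions the shares were close to it, at 64.6% in the KOPN clone and 64.6% in the KOPN controls. In larger stretches, grouped by number of regions, they lay between 66.8% and 72.2%. Of the member regions 60.5% were called in all 8 libraries, against 56.9% of all regions. Another 915 (23.1%) were called in both libraries of both 697 groups but in neither KOPN group in both libraries, against 23.8% of all regions.

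**Figure D3:**
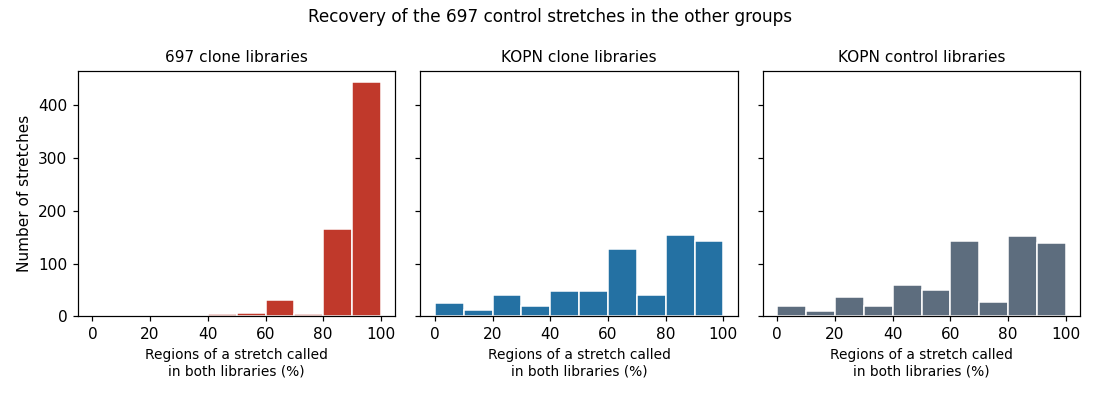
Number of stretches (vertical axis) by the percentage of their regions called in both libraries of the 697 clone, the KOPN clone and the KOPN controls (horizontal axis, bins of 10 percentage points). In the 697 clone 437 of 659 stretches have all regions called, while the KOPN groups spread from 0 to 100%.

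Single stretches ranged from fully shared to absent in KOPN. All regions were called in both libraries for 138 stretches in the KOPN clone and 135 in the KOPN controls, and the median stretch had 71.4% of its regions in the clone and 66.7% in the controls. Under 50% of the regions were called in 146 stretches in the KOPN clone and in 147 in the KOPN controls. In 12 stretches neither KOPN clone library had a peak, and likewise in 12 neither KOPN control had one. In all, 94 stretches had every region called in all 8 libraries and 31 had none. No matching counts over all joined groups were made, so none of these is read as particular to the stretches.

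The stretches that were fully shared included 2 near each other on chromosome 6. In chr6:26020458-26056863, with 10 regions, the peaks numbered 12 and 12 in the 697 clone, 10 and 10 in the 697 controls, 10 and 12 in the KOPN clone and 9 and 13 in the KOPN controls. In chr6:26189173-26235377, with 7 regions, they numbered 11 and 12 in the 697 clone, 8 and 9 in the 697 controls, 11 and 10 in the KOPN clone and 11 and 11 in the KOPN controls. All 10 and all 7 regions were called in both libraries of every group. The other 8 of the 10 largest stretches with every region called in both KOPN controls lay on chromosomes 1, 2, 8, 10, 11, 12 and 21.

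Of the 20 stretches with no region called in both KOPN controls, the largest had 6 regions. In chr5:128455480-128471668 the peaks numbered 5 and 5 in the 697 clone, 6 and 6 in the 697 controls, 2 and 2 in the KOPN clone and 1 and 1 in the KOPN controls. In chr11:8083870-8114481 they numbered 7 and 6 in the 697 clone, 7 and 7 in the 697 controls, 1 and 1 in the KOPN clone and 0 and 1 in the KOPN controls. Stretches without any KOPN peak included chr2:1785143-1801159, with 5 and 7 peaks in the 697 clone and 5 and 5 in its controls, and chr3:21573430-21589253, with 5 and 4 in the clone and 5 and 5 in the controls. In the 697 clone these 2 stretches kept all 5 regions each.

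Wider regions of a stretch were found again more often, as a description over regions that share libraries. The widest region of each stretch was called in both 697 clone libraries in 99.5% of stretches, in both KOPN clone libraries in 80.3% and in both KOPN controls in 81.5%. For the narrowest region of each stretch these shares were 80.7%, 51.3% and 50.1%. Position in the stretch went with a smaller difference, since the first and last regions were called in both KOPN controls in 66.5% of cases and the inner regions in 67.4%. All 697 control regions were divided into 4 equal classes by width. In the narrowest class, up to 314 bp wide, members were called in both 697 clone libraries in 80.6% of cases and other regions in 74.6%. In the KOPN clone these shares were 50.4% for members and 44.5% for others, and in the KOPN controls 49.3% and 44.0%. In the widest class, above 645 bp, members and others were close, with 99.6% and 99.2% in the 697 clone, 84.3% and 84.2% in the KOPN clone and 84.1% and 84.8% in the KOPN controls.

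**Figure D4:**
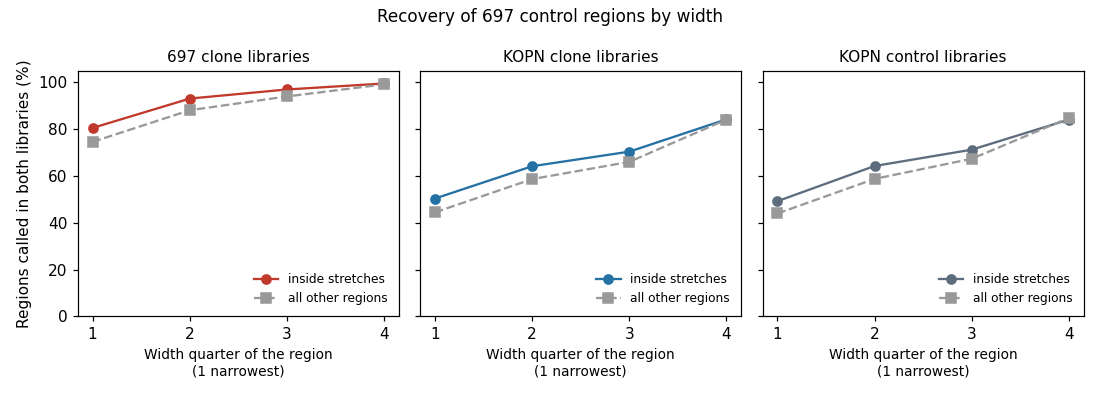
Percentage of 697 control regions called in both libraries of the 697 clone, the KOPN clone and the KOPN controls (vertical axis) by width class of all 697 control regions (horizontal axis, 4 equal classes with 1 the narrowest), for regions inside stretches and all others. In the narrowest class the regions inside stretches lie higher, at 80.6% against 74.6% in the 697 clone, and in the widest the curves meet.

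The third comparison set the KOPN clone against the KOPN controls within the stretches, which no KOPN list had helped to choose. The clone had 3380 and 3393 peaks inside the stretches and the controls 3432 and 3322. The share of autosomal peaks was 5.19% and 5.42% in the clone and 5.04% and 5.40% in the controls, or 5.30 ± 0.166% in the clone and 5.22 ± 0.258% in the controls (SD, n = 2 each). The groups overlap, and the difference of 0.0842 percentage points lay within the SD of each group (exact permutation, two-sided p = 0.667, with 0.333 the smallest that 2 against 2 libraries can give). In the 4 merged KOPN lists, 115 of 3862 regions inside the stretches (2.98%) were gained and 113 (2.93%) lost, against 3.61% and 3.79% of all autosomal regions. Leaving out any 1 KOPN library gave 181 to 259 gained and 189 to 251 lost, where 1 call fewer was asked for.

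**Figure D5:**
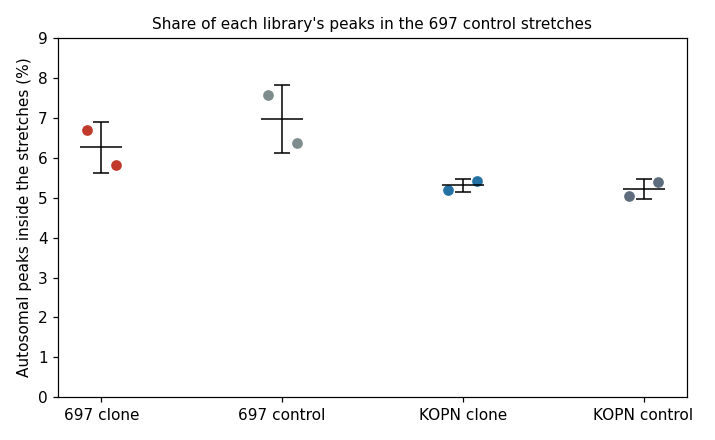
Percentage of each library's autosomal peaks that lie inside the 659 stretches (vertical axis), by group (horizontal axis). Points are libraries, and bars give the mean and SD of 2 libraries. The clone points overlap those of the controls in each line, and the 697 groups, whose controls chose the stretches, lie above the KOPN groups.

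By stretch, both KOPN clone counts lay above both control counts in 80 (12.1%) and below in 75 (11.4%), against 7.86% and 7.23% of the groups of 3 or more regions. Small groups can differ in count less often, so nothing is read from the higher shares of the stretches. A single stretch cannot pass a test with 2 libraries a group. The largest mean excess of peaks was in chr3:13025710-13064322, with 12 and 12 peaks in the KOPN clone and 9 and 8 in the KOPN controls, beside 6 and 6 in the 697 clone and 7 and 6 in the 697 controls. In chr2:90246328-90260476 the KOPN clone had 4 and 4 peaks and its controls 1 and 1, and in chr3:10461658-10480583 it had 3 and 4 and its controls 1 and 1. The largest mean deficits were in 2 stretches. The first was chr1:218503402-218558423, with 5 and 5 peaks in the KOPN clone and 9 and 9 in the KOPN controls, beside 9 and 8 in the 697 clone and 8 and 8 in the 697 controls. The other was chr10:54399396-54412901, where the KOPN clone had 1 and 1 peaks and its controls 5 and 5. In chr13:97634916-97683639 it had 5 and 5 and its controls 8 and 8.

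Chromosomes 8 and 13 held more stretches with fewer peaks in the KOPN clone than with more, and their part in the counts above was not tested. On chromosome 8 the 55 stretches contained 254 and 262 peaks in the KOPN clone and 283 and 270 in the KOPN controls, and 12 of them lay below and 8 above their controls. On chromosome 13 the 15 stretches contained 73 and 71 peaks in the KOPN clone and 83 and 80 in the KOPN controls, and 6 lay below and 1 above. The KOPN clone libraries were lower on both chromosomes without overlap. Over all regions of chromosomes 8 and 13 fewer were called in the KOPN clone as well, with 1421 on chromosome 13 against 1657 in the KOPN controls. Inside the stretches the KOPN clone was higher without overlap on chromosomes 2 (377 and 388 against 375 and 376), 12 (151 and 155 against 143 and 144) and 14 (210 and 211 against 207 and 206). Inside the stretches the 697 clone was lower than its controls without overlap on chromosome 13, with 89 and 91 peaks against 92 and 97. It was also lower on chromosomes 14 (244 and 248 against 250 and 250) and 22 (11 and 12 against 13 and 13). On chromosomes 17 (49 and 49 against 46 and 47) and 21 (39 and 37 against 36 and 36) it was higher. Nothing is read from these counts of 697, because its controls chose the stretches. The numbers of stretches below and above were not set beside all groups of these chromosomes. With chromosomes 8, 13 and 19 left out, the difference in the share of peaks was 0.0180 percentage points (exact permutation, two-sided p = 1), and 108 regions were gained and 92 lost.

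The same rule gave more stretches in each of the other groups, namely 926 in the 697 clone, 1258 in the KOPN clone and 1161 in the KOPN controls, against 659 in the 697 controls. The numbers of regions called in both libraries were 52353, 52170 and 52036, against 46979. Of the 659 stretches 517 (78.5%) overlapped a stretch of the 697 clone, and 516 of the clone's 926 (55.7%) overlapped one of the 659. For the KOPN clone, 334 of the 659 (50.7%) overlapped one of its stretches, and 335 of its 1258 (26.6%) overlapped one of the 659. For the KOPN controls these counts were 334 of the 659 (50.7%) and 334 of 1161 (28.8%). The same stretch can stand in several of these counts. All 4 groups had a stretch at 267 (40.5%) of the 659, and 183 (27.8%) had one in both 697 groups and in neither KOPN group. Of the 142 stretches that the clone of 697 did not form again, 116 had 5 regions and 101 missed no more than 1 region in the clone. With every list reduced to 57154 peaks, the 697 clone gave 538 stretches, the KOPN clone 832 and the KOPN controls 680, against 488 in the 697 controls. The number of stretches rested on both control lists of 697, since with only the second of them it was 1409.

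Sharing was also counted from the stretches of the other groups. Regions in the 697 clone's own stretches were called in both 697 controls in 81.1% of cases, against 79.5% of all regions of the clone. For stretches built from the KOPN clone the share called in both 697 controls was 53.0%, against 57.2% of all its regions. For stretches built from the KOPN controls it was 54.1%, against 57.7%. Regions in stretches of KOPN were thus found in 697 at a share below that of all KOPN regions, while regions in stretches of 697 were found in KOPN at a share above that of all 697 regions. Both are descriptions with no test.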

How the data were processed

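ATAC-seq peak lists of 8 libraries were used, 1 list per library, so calls were not pooled over replicates. The submitters' processing notes name Bowtie2, MACS2 and hg19. Versions, settings and any shift for the Tn5 cut site: not given in the sources used here, though list length may depend on them. The deposited value of a peak was read as a fold, a linear ratio of the peak over local background by the authors' caller, from its range alone, and was used only to rank peaks within a list. All peaks were at least 200 bp wide.

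Regions, stretches and counts were computed with Python 3.11.15, NumPy 2.4.6 and SciPy 1.17.1 on the 22 autosomes, and checked on simulated lists. A region counted as called in a library or group when it shared 1 bp or more with its peak or region. Named stretches are, by a fixed rule, those with the most regions, the greatest length, the lowest share in the 697 clone, the lowest and highest share in KOPN controls, and the largest KOPN clone differences without overlap. Members and lists were chosen with earlier results of these data known. Chains within 100 kb, width classes, positions within a stretch and the stretch counts of the other groups under each alternative were chosen after seeing the data. Gene lists planned for naming loci were not used, since no hg19 annotation was at hand, and no sequence is shown for the same reason. The replicate numbers of the labels do not state that samples are paired.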

Additional observations from a re-analysis of the deposited data

Results flagged for a closer look

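In 5 named stretches both clone libraries of 697 lay on one side of their controls and both of KOPN on the other. Those on chromosomes 7, 8, 10 and 21 met the naming rule for large KOPN clone differences without overlap. The 1 on chromosome 5 was named for its low share in KOPN controls. The choice thus favoured such values in KOPN, and the 697 controls chose all stretches. The difference between the lines was not tested. In chr8:130547906-130605966 the mean number of peaks in the clone minus that in the control was 3.5 in 697 and -3.5 in KOPN. In chr21:32458797-32515251 it was 1 in 697 and -3.5 in KOPN, with 9 and 9 peaks in the 697 clone, 8 and 8 in the 697 controls, 8 and 9 in the KOPN clone and 12 and 12 in the KOPN controls. In chr7:16091530-16118056 it was 2 in 697 and -2.5 in KOPN. In chr5:128455480-128471668 it was -1 in 697 and 1 in KOPN, and in chr10:80843974-80874489 -1 in 697 and 2 in KOPN. Over all 659 stretches 16 moved in opposite ways without overlap and 9 the same way. The matching counts over all joined groups were not made, so nothing is read from these 2 counts.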

How the results depend on the processing

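Values outside the limits set for them are given, with ranges over left-out libraries. The limits were 1.5 times the count for counts, the 95% exact binomial interval for shares of regions and of stretches, 1 SD for the difference in 697 and a change of sign for the difference in KOPN. Leaving out a library that does not enter a result cannot change it, and such repeats say nothing about stability. The cause was not tested, except that a smaller gap or a higher minimum leaves fewer stretches by construction. The counts of stretches of the other groups under each alternative were chosen after seeing the data. Depth and read-level signal are unknown, so peaks missed for lack of reads cannot be told from closed sites.

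Stretches numbered 54 with a gap of 5000 bp, 1721 with 25000 bp, 3348 with 3 regions, 22 with 10 regions and 39 from the strongest 50% of each list. In the same order, the 697 clone gave 76, 2201, 4241, 45 and 66, the KOPN clone 157, 2552, 4718, 101 and 92, and the KOPN controls 117, 2496, 4518, 80 and 66. With lists of equal length these 3 groups gave 538, 832 and 680. Member regions called in both 697 clone libraries were 95.5% with 10 regions, 93.6% in the strongest 50%, 89.8% at equal length and 88.1% where peaks had to share 50%. For both KOPN clone libraries the share was 65.5% at equal length and 64.9% with 50% sharing. For both KOPN controls it was 64.9% with 5000 bp, 65.5% with 3 regions, 65.5% in the strongest 50%, 65.5% at equal length and 64.5% with 50% sharing.

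Stretches overlapping one of the 697 clone were 70.4% with 5000 bp, 86.1% with 25000 bp, 84.3% with 3 regions, 72.7% with 10 regions, 82.1% in the strongest 50%, 68.6% at equal length and 69.9% with 50% sharing. For the KOPN controls these were 31.5%, 64.3%, 57.3%, 22.7%, 25.6% and 42.4% up to equal length. Regions gained in the 697 clone numbered 1, 375, 194, 5 and 3 with 5000 bp, 25000 bp, 3 regions, 10 regions and the strongest 50%, and 23 at equal length, and those lost 4, 277, 281, 2 and 3. In the KOPN clone 8, 410, 340, 7 and 7 were gained and 5, 394, 318, 6 and 8 lost. The share of peaks in the 697 clone minus control was -1.69 percentage points with 25000 bp and -2.54 with 3 regions. In KOPN it was -0.000514 with 10 regions (exact permutation, two-sided p = 1).

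Leaving out 1 library at a time gave 659 to 1409 stretches, and 926 to 1965 for the 697 clone, 1258 to 1983 for the KOPN clone and 1161 to 1947 for the KOPN controls. Member regions called ranged from 80.5% to 97.2% in the 697 clone, 58.1% to 71.4% in the KOPN clone and 57.7% to 72.0% in the KOPN controls. Overlap with stretches ranged from 53.2% to 92.4% for the 697 clone and 37.5% to 61.3% for the KOPN controls. Regions gained ranged from 73 to 251 and lost from 78 to 790 in the 697 clone, and gained from 115 to 259 and lost from 113 to 251 in the KOPN clone. The difference in the share of peaks ranged from -2.22 to -0.260 percentage points in 697 and from -0.0981 to 0.266 in KOPN, where it was -0.0333 without the second clone library and -0.0981 without the first control.

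With the replicate number as a replicate block the difference was 0.0842 percentage points in KOPN (exact permutation within pairs, two-sided p = 0.5, the smallest that 2 pairs can give) and -0.706 in 697, where a block cannot change a difference of means of 2 against 2 libraries. Over the 659 stretches the deviations of same-numbered libraries were hardly correlated, at 0.0894 in 697 and -0.0227 in KOPN. Stretches share libraries, so this cannot settle whether libraries are paired. The share of peaks did go the same way by number. In 697 replicate 1 was higher, at 6.70% against 5.81% in the clone and 7.56% against 6.37% in the controls. In KOPN replicate 1 was lower, at 5.19% against 5.42% in the clone and 5.04% against 5.40% in the controls. In each group the replicate with the longer autosomal list had the lower share, and the part of list length in this was not tested. The labels state no pairs, so the numbers were not taken as pairs.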

Other observations

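Chromosome X was outside the rule of the stretches. The same rule gave 20 stretches there in the 697 clone, 11 in the 697 controls, 35 in the KOPN clone and 32 in the KOPN controls, from 1748, 1560, 1726 and 1747 regions.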
